A study of Mus musculus with 24 samples.

Results

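Peaks at olfactory receptor genes were taken from 16 peak lists of mouse kidney cells, made with CUT&RUN, in which an antibody directs a nuclease to cut out the DNA around a bound protein. A peak was a member when its summit lay in the body of, or within 1000 bp of, 1 of the 1110 protein-coding genes whose RefSeq symbol starts with Olfr (or with Or and a digit, which none did). This gave 666 peaks of 576562 in all lists, 258 with the Sox9 antibody and 408 with the H3K4me3 antibody. The receptor genes and their flanks covered 4.33 Mb on 17 chromosomes, and the other 20777 protein-coding genes, with the same flanks, covered 1063 Mb and held 287453 peaks.

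The lists fell into 4 groups of 4: Sox9 at 10d, Sox9 at 48h, H3K4me3 at 10d and H3K4me3 at 48h after bilateral ischaemia-reperfusion injury, in which the blood supply of both kidneys is interrupted and restored. All groups came from male Sox9IRES-CreERT2/+:R26RtdT/+ mice, aged 9 to 12 weeks, that received tamoxifen at the injury. The inducible Cre is driven from the Sox9 locus, so the tdTomato reporter marks cells that expressed Sox9 around the injury, and their descendants; no uninjured group and no tdTomato-negative cells were analysed here. Cortex and outer medulla were dissociated, tdTomato-positive cells were sorted, fixed in 0.2% paraformaldehyde and frozen, and each pellet was divided into 3 aliquots for Sox9, for H3K4me3 as a positive control and for input. Times were read from the titles, since the cell type field gives day 10 throughout, for the 48h samples as well. The 8 inputs were not analysed here. The replicates were labelled as biological.

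Olfactory receptors are G protein-coupled receptors that bind odorants at the cilia of sensory neurons in the nose. The mouse genome holds them in tandem clusters, and each mature neuron expresses a single allele of a single receptor gene. In other tissues the clusters mostly lie in closed, repressed chromatin, and H3K4me3, the histone mark of active promoters, is low there. A few receptors have been reported from kidney, among them Olfr78, which is known from renal vessels and renin release, and Olfr1393, which is known from the proximal tubule and glucose reabsorption. Sox9 is a transcription factor that injured tubule cells switch on.

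The receptor genes are short. The median body was 950 bp, with a range of 842 to 71199 bp, against a median of 18769 bp for the other protein-coding genes. Strand and sequence around annotated starts (250 bp before to 50 bp after) were available from RefSeq for 944 of the 1110 receptor genes. In 72.4% of their 948 windows a start codon stood exactly at the annotated start, against 5.13% of the windows of other protein-coding genes. For most receptors the annotated start is therefore the coding start, and upstream non-coding exons are not in the gene model. The windows shown here include the 2 receptor windows that held summits from more than 1 list (Olfr12 and Olfr30). Also shown is the receptor window with a summit that had the most copies of the core SOX motif (Olfr1450). For contrast, a ribosomal protein gene window with summits from 3 lists (Rpl34) is given. All windows shown are from RefSeq on GRCm38.p6, the assembly of mm10, and read 5′ to 3′ along the gene. Capitals mark ACAAT, the core of the motif that SOX proteins bind, or ATTGT, the same letters on the other strand.
Olfr12, chr1:92619631-92619930, plus strand: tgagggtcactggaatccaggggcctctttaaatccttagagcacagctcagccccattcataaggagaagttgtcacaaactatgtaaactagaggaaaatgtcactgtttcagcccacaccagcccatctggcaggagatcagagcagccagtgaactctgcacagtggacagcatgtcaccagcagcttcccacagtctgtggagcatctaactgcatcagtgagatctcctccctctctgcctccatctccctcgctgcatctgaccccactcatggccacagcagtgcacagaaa
Olfr30, chr11:58455931-58456230, minus strand: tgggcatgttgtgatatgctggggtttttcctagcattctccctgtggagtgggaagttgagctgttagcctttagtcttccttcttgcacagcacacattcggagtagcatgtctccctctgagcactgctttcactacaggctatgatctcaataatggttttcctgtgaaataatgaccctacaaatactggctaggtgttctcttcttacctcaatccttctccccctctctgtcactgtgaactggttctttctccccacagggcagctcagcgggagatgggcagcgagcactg
Olfr1450, chr19:12953341-12953640, plus strand: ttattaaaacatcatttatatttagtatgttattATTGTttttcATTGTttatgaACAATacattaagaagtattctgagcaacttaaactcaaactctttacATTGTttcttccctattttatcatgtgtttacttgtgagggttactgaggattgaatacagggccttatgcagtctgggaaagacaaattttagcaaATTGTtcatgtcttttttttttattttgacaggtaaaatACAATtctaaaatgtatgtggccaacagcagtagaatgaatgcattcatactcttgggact
Rpl34, chr3:130730288-130730587, minus strand: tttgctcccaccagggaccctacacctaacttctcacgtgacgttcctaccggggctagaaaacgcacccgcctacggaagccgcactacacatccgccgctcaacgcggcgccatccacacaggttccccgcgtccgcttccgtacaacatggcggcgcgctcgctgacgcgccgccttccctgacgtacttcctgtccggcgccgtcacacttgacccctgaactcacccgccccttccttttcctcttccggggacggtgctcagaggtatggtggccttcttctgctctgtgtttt
The Olfr12 window had a GC content of 52.3% and 1 CpG dinucleotide, the Olfr30 window 49.3% and 3, and the Olfr1450 window 29.7% and 0, whereas the Rpl34 window had 62.3% and 30. The 6 core SOX matches of Olfr1450 contrast with 0 in each of the other windows shown.

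Peak density at receptor genes was below that at other protein-coding genes in 16 of 16 lists. With Sox9 at 10d, receptor genes held 22.2, 4.39, 4.62 and 9.01 peaks per Mb in replicates 1 to 4, against 36.9, 7.14, 8.34 and 18.4 at other genes of the same lists. With Sox9 at 48h, receptor genes held 2.54, 6.47, 3.93 and 6.47 peaks per Mb, against 3.69, 12.7, 8.02 and 8.04 at other genes. The ratio within a list, which does not depend on the length of the list, ran from 0.491 to 0.615 at 10d and from 0.490 to 0.805 at 48h, so no Sox9 list reached the density of other genes. Over the 8 Sox9 lists the log2 ratio, with 0.5 added to each count, was -0.74 ± 0.258 (SD, n = 8), a 0.599-fold density (two-sided exact sign-flip permutation test, p = 0.00781, the smallest that 8 lists can give, adjusted over 7 tests p = 0.0182).

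The H3K4me3 lists gave a ratio of like size. At 10d receptor genes held 21.7, 7.86, 21.5 and 7.86 H3K4me3 peaks per Mb, against 42.6, 14.5, 34.6 and 15.1 at other genes. At 48h receptor genes held 7.39, 8.09, 10.9 and 9.01, against 14.1, 15.7, 17.8 and 12.6 at other genes. The highest and lowest list differed about as much at receptor genes as at other genes, and the 10d group spread more widely than the 48h group in both. The mean log2 ratio was -0.81 ± 0.174 (SD, n = 8), a 0.572-fold density (exact sign-flip permutation test, p = 0.00781, adjusted p = 0.0182). Receptor peaks made up 0.0983% to 0.166% of the peaks of a list.

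**Figure D1:**
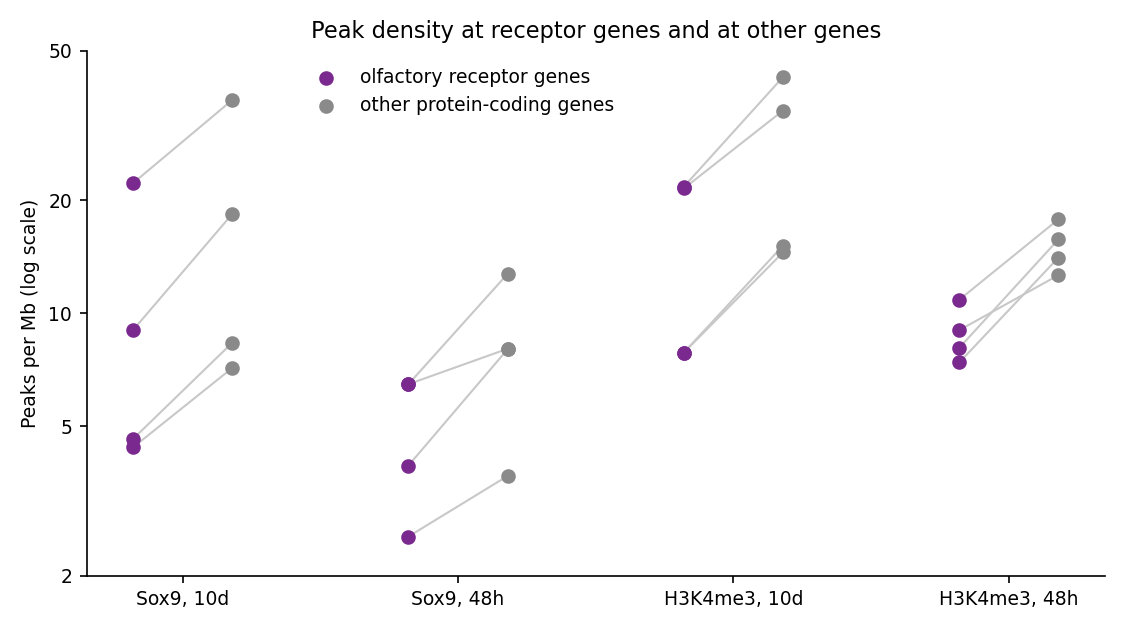
Peaks per Mb (log scale) at olfactory receptor genes (purple, left) and at other protein-coding genes (grey, right) in the 4 lists of each group; a line joins the values of 1 list. All 16 lines run upward to the right, and the groups differ more in the height of the lines than in their slope.

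The lists differed in length, from 7706 to 88496 peaks on chromosomes 1 to 19, X and Y, and the Sox9 and H3K4me3 lists of the pellet 10d replicate 1 were the longest of their antibodies. Without that pellet the log2 ratio was -0.74 for Sox9 and -0.78 for H3K4me3. No 2 lists of an antibody shared more than 13 peaks with identical ends. Sequencing depth was not given in the sources used here.

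The time after injury did not separate the lists in this ratio. The mean log2 ratio of Sox9 was -0.80 ± 0.149 at 10d and -0.67 ± 0.348 at 48h (SD, n = 4 each), a difference of -0.13 with a 95% interval of -0.71 to 0.32 (exact permutation test of 4 against 4 lists, two-sided p = 0.514, adjusted p = 0.556). H3K4me3 had -0.86 ± 0.125 at 10d and -0.75 ± 0.218 at 48h, a difference of -0.11 with an interval of -0.49 to 0.25 (exact permutation p = 0.486, adjusted p = 0.556). The smallest p that 4 against 4 lists allow is 0.0286. Nor did the antibodies differ beyond the spread of the lists. Sox9 minus H3K4me3 was 0.066 on the log2 scale over all lists, with an interval of -0.16 to 0.30 (exact permutation test of 8 against 8, p = 0.556, adjusted p = 0.556), 0.055 within 10d (exact p = 0.571) and 0.078 within 48h (exact p = 0.829). The intervals leave room for a ratio of receptor to other-gene density that is 0.611 to 1.25 times as high at 10d as at 48h for Sox9, and 0.712 to 1.19 times for H3K4me3. The densities themselves averaged 10.1 per Mb at 10d and 4.85 at 48h for Sox9, and 14.7 at 10d and 8.84 at 48h for H3K4me3, and those of other genes moved with them. Without 1 library at a time the Sox9 difference ran from -0.23 to -0.00079 and the H3K4me3 one from -0.17 to -0.011. With gene bodies alone they were -0.46 (exact p = 0.0571) and -0.35 (exact p = 0.171).

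The size of the deficit depended on what the receptor genes were set against. Receptor genes averaged 7.45 Sox9 and 11.8 H3K4me3 peaks per Mb per list, against 24.8 and 43.8 at other genes of at most 10000 bp (6838 genes). This was a 0.286-fold density for Sox9 and a 0.275-fold density for H3K4me3 (log2 -1.80 ± 0.324 and -1.86 ± 0.202, SD, n = 8 each, lower in 8 of 8 lists of each antibody, unadjusted exact p = 0.00781 for both). Against the 1805 other genes within 1000000 bp of a receptor gene the ratio was 0.499 for Sox9 and 0.480 for H3K4me3. Space outside every protein-coding gene and its flanks held 8.63 Sox9 and 13.1 H3K4me3 peaks per Mb per list, near the receptor values above. Non-coding genes and unsequenced stretches were not taken out of that space. The log2 ratio of receptor genes to that space was -0.072 ± 0.278 for Sox9 (lower in 5 of 8 lists, exact p = 0.469) and -0.13 ± 0.202 for H3K4me3 (lower in 7 of 8 lists, exact p = 0.109; SD, n = 8 each). Space outside protein-coding genes but inside the receptor clusters held 7.84 and 11.6 peaks per Mb per list. Against it receptor genes had 1.11 times the density for Sox9 and 1.05 times for H3K4me3 (exact p = 0.242 and 0.414). Counting gene bodies alone, without the flanks, gave 0.818-fold for Sox9 (lower in 7 of 8 lists, exact p = 0.0469) and 0.830-fold for H3K4me3 (lower in 6 of 8, exact p = 0.0781).

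The receptors also differed in base composition. Receptor windows around the annotated start averaged a GC content of 36.1% ± 6.23 (SD, 948 windows) and 1.29 CpG dinucleotides, against 57.2% ± 10.9 and 16.04 in the windows of other protein-coding genes, and 33.3% of receptor windows against 3.29% of the others held no CpG. When only the 4181 other genes whose window GC lay between 27.3% and 48.3%, the 5th and 95th percentiles of the receptors, were used, the receptor density was 0.816-fold for Sox9 (log2 -0.29 ± 0.289, lower in 6 of 8 lists, unadjusted exact p = 0.0469) and 0.766-fold for H3K4me3 (log2 -0.38 ± 0.199, lower in 7 of 8 lists, unadjusted exact p = 0.0156). This match was on the window alone, while density was counted over whole genes, so neither gene length nor body composition was matched. Many receptors have close copies, and how reads that map to several places were treated was not stated, so a peak may belong to a copy. The part of base composition and of mappability in the densities was not tested.

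**Figure D2:**
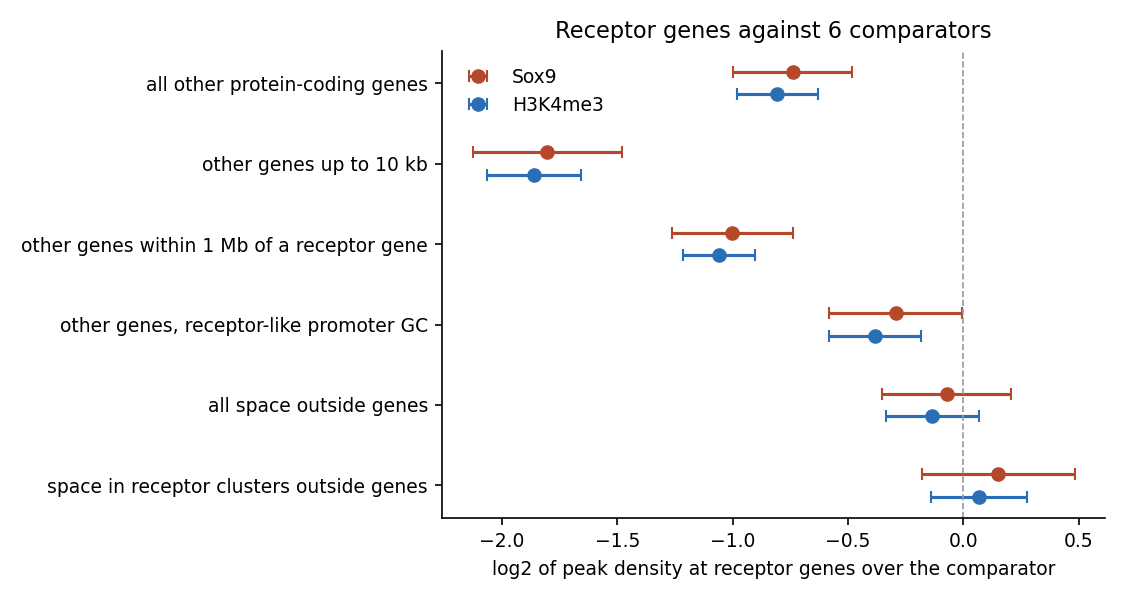
Mean log2 ratio of peak density at receptor genes over 6 comparators (points; bars are the SD over 8 lists) for Sox9 (orange) and H3K4me3 (blue); the dashed line marks equal density. The ratio is farthest from 0 against other genes up to 10000 bp (-1.80 and -1.86). It lies within 1 SD of 0 against the space outside protein-coding genes, inside the receptor clusters or anywhere.

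Almost all receptor peaks had the lowest height. Peak heights, solved from the deposited fold and p, were whole multiples of 1 step in each list, and 660 of the 666 receptor peaks stood at 1 step, as did 92.5% to 97.8% of all peaks of a list. The other 6 stood at 2 steps and none at 3 or more, where a count of 0 of 666 allows a share of up to 0.450%. At 3 or more steps the receptor share minus that at other genes averaged -0.365 percentage points for Sox9 and -0.700 for H3K4me3. Shares of that size give few peaks, and the limit pools both antibodies, so neither antibody was judged alone. Both Sox9 peaks of 2 steps lay outside the gene body, at Olfr535 (10d replicate 1) and Olfr726 (48h replicate 2). Of the 4 H3K4me3 peaks of 2 steps, those at Olfr161, Olfr330 and Olfr568 lay in the body and that at Olfr1341 lay 804 bp downstream, and all 4 were in 10d lists. If each list had held the share of such peaks that it had at other genes, the 258 Sox9 receptor peaks would have included 9.39 and the 408 H3K4me3 receptor peaks 23.7. The counts of 2 and 4 have 95% Poisson intervals of 0.242 to 7.22 and 1.09 to 10.2, which cover counting error only. Within most single lists the difference could not be judged. At that share 6 of 8 Sox9 lists would have held fewer than 1 such peak, and the H3K4me3 lists between 1.13 and 10.1. The 10.1, a large part of the 23.7, belonged to H3K4me3 10d replicate 1. There 10.8% of the peaks at other genes stood at 2 or more steps, and 1 of 94 receptor peaks did.

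Although they were low in height, receptor peaks ranked high in the authors' fold, which divides the height by the local background. Ranking all peaks of a list by fold from 0 to 100%, the median receptor peak stood between 59.5% and 83.1% in the Sox9 lists and between 57.4% and 83.1% in the H3K4me3 lists, whereas the median peak at other genes stood between 38.5% and 41.2% for Sox9 and between 37.0% and 43.6% for H3K4me3. The receptor and other-gene ranges did not overlap for either antibody. Peaks at other genes were 287453 of the 576322 peaks used and stood below the middle of each list, so the remaining peaks must stand higher. Peaks outside protein-coding genes were not ranked apart, so a high fold is not shown to be particular to receptor peaks. Among peaks of 1 step the fold differs only through the background, so this rank orders how low the background was and not how high the peak was. The median width of receptor peaks was 133 bp for Sox9 and 133.5 bp for H3K4me3.

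Within the receptor loci the summits lay in the short bodies more often than beside them. In the body lay 164 of 258 Sox9 summits (63.6%) and 278 of 408 H3K4me3 summits (68.1%). On the sides with a known strand, 37 Sox9 summits were upstream and 39 downstream, and 56 H3K4me3 summits were upstream and 51 downstream. Bodies held 9.65 Sox9 peaks per Mb per list and their 1000 bp flanks 5.35, a log2 ratio of 1.07 ± 0.897 (SD, n = 8, higher in 7 of 8 lists, exact sign-flip permutation p = 0.0234, adjusted over both antibodies p = 0.0234). For H3K4me3 the bodies held 16.4 and the flanks 7.23, a log2 ratio of 1.36 ± 0.710 (8 of 8 lists, exact p = 0.00781, adjusted p = 0.0156). This comparison was chosen after the data had been seen. Among other genes of at most 10000 bp the same ratio was 0.85 ± 0.171 for Sox9 and 0.76 ± 0.246 for H3K4me3, and among all other genes it was -0.54 ± 0.112 and -0.59 ± 0.226. Just inside the 1000 bp limit, at 900 to 1000 bp from a body, lay 11 Sox9 and 14 H3K4me3 peaks, and just outside it, at 1000 to 1100 bp, lay 18 and 16.

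Receptor summits were not concentrated at the annotated start as those of other genes were. Within 250 bp of the start they had 8.70 Sox9 and 12.1 H3K4me3 peaks per Mb per list (33 and 46 peaks), against 72.1 and 156 at other protein-coding genes. Relative to the density at 1000 to 2000 bp from the start, this was 1.50 times for Sox9 (95% Poisson interval 1.03 to 2.11) and 1.50 times for H3K4me3 (1.10 to 2.00), against 4.60 (4.49 to 4.72) and 5.83 (5.73 to 5.93) at other genes. The excess over receptors lay after the start and not before it. In the 250 bp before the start there were 4.22 Sox9 and 7.38 H3K4me3 peaks per Mb per list, and in the 250 bp after it 13.2 and 16.9. H3K4me3 was highest at 500 to 750 bp after the start, with 29.0 peaks per Mb per list, and returned to 6.33 at 1000 to 1250 bp, past the end of a typical receptor body. These intervals cover counting error only.

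**Figure D3:**
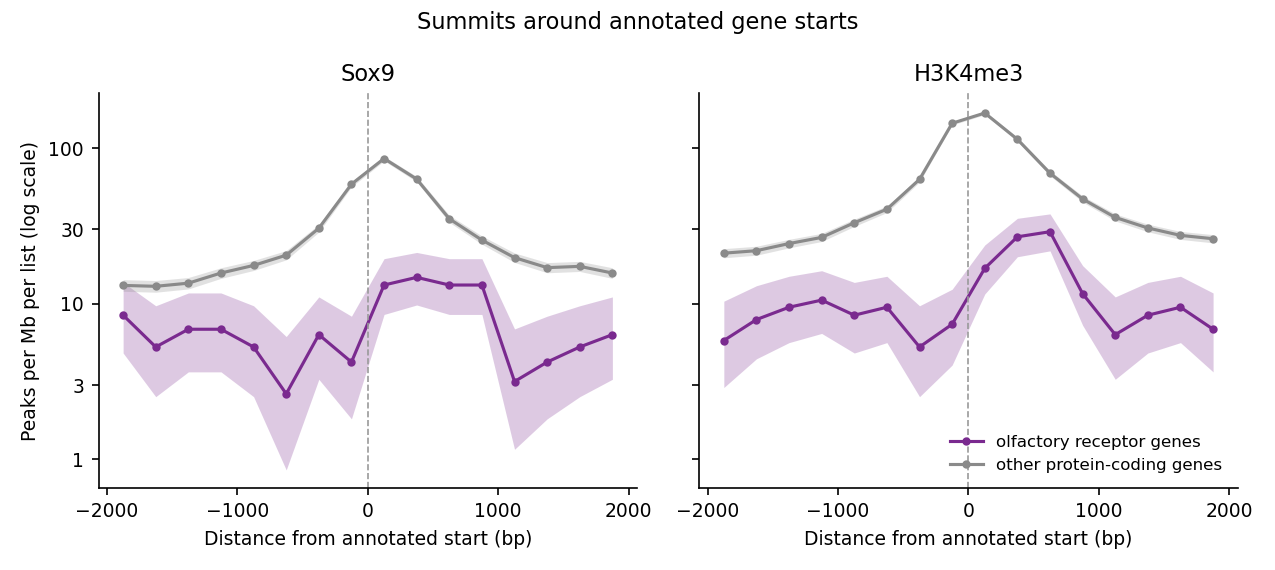
Summits per Mb per list (log scale) in 250 bp bins by distance from the annotated gene start, for Sox9 (left panel) and H3K4me3 (right panel), at olfactory receptor genes (purple) and at other protein-coding genes (grey); bands are 95% Poisson intervals of the pooled counts of 8 lists. Other genes peak at the start, and receptor genes are raised over the 1000 bp after it, with H3K4me3 highest at 29.0 in the bin of 500 to 750 bp.

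A summit of any list was found in 27 of the 948 receptor windows (2.85%), against 36.0% of the windows of other protein-coding genes and 27.8% of all 32851 windows. Of these 27, 25 held it in 1 list. The Olfr12 window, printed above, held H3K4me3 summits at 38 bp after and 90 bp before the start, in 10d replicate 3 and 48h replicate 4. The Olfr30 window held Sox9 summits at 179 bp and 85 bp before the start, in 10d replicates 1 and 4. The Olfr1450 window, with its 6 core SOX matches, held an H3K4me3 summit in 10d replicate 1 and no Sox9 summit. The core SOX letters were found on either strand in 25.9% of the 27 windows with a summit, in 65.5% of the 921 receptor windows without, and in 31.0% of all 32851 windows in the RefSeq table. The same 27 windows had a GC content of 42.2% ± 8.22, against 35.9% ± 6.08 in the 921 without a summit (SD over windows), and letters rich in A and T are more frequent where GC is low.

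Gene by gene, the receptor family had few peaks that recurred. A Sox9 peak was present in at least 1 of 8 lists at 213 receptor genes (19.2%), against 80.0% of all 21887 protein-coding genes and 61.8% of other genes of at most 10000 bp. An H3K4me3 peak was present in at least 1 list at 293 receptor genes (26.4%), against 86.7% of all protein-coding genes and 74.8% of the short other genes. In at least 3 of 8 lists the counts were 6 receptor genes for Sox9 (0.541%, against 43.8% of all genes and 13.8% of the short ones) and 16 for H3K4me3 (1.44%, against 62.1% and 32.0%). No receptor gene had a peak in 8 of 8 lists of an antibody, against 2.75% of all genes for Sox9 and 8.58% for H3K4me3, but among the short other genes these shares were 0.0439% and 0.146%. No receptor gene had a peak in 4 of 4 lists at 10d and 0 of 4 at 48h (all genes 0.379% for Sox9 and 0.512% for H3K4me3, short other genes 0.117% and 0.322%), or the reverse (all genes 0.0183% and 0.0274%). A count of 0 of 1110 genes allows a share of up to 0.270%, so none of these patterns but that of H3K4me3 at 10d was detectable at the rate of the short other genes. Those genes share only the upper limit of 10000 bp and are not matched to the receptors in length. A total of 685 receptor genes (61.7%) had no peak in any of the 16 lists, against 9.20% of all genes and 16.98% of the short other genes. Both antibodies had peaks at 81 receptor genes (7.30%), against 75.8% of all genes and 53.5% of the short other genes. These 81 were 38.03% of the receptor genes with a Sox9 peak and 27.6% of those with an H3K4me3 peak, and among the short other genes the same shares were 86.6% and 71.6%. Such shares depend on how many genes have a peak at all.

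**Figure D4:**
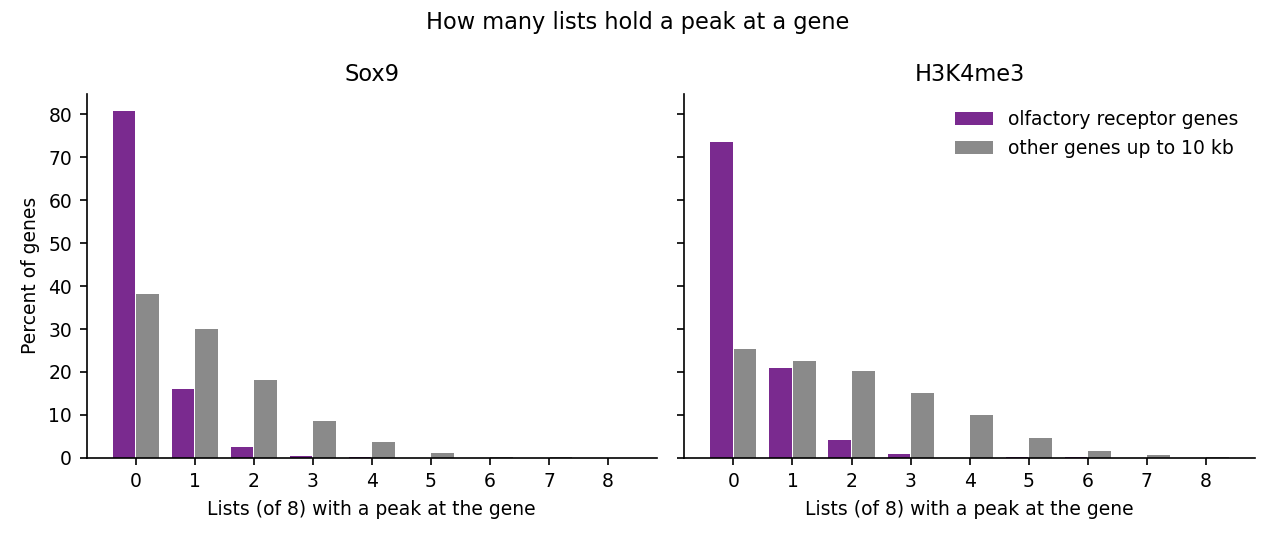
Percent of genes by the number of lists (of 8) with a peak at the gene, for Sox9 (left panel) and H3K4me3 (right panel), at olfactory receptor genes (purple) and at other protein-coding genes of at most 10000 bp (grey). Receptor genes fall to 0.450% at 3 lists for Sox9 and 0.991% for H3K4me3, where the short other genes are still at 8.53% and 15.2%.

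The peaks rarely fell on the same place. The 666 receptor peaks made 633 distinct places, 95.4% of them in 1 list, against 90.8% of the 253229 places at other genes. The place with the most lists, 4, lay in the body of Olfr165 (chr16:19413121-19413697, mm10), with a Sox9 peak in 48h replicate 3 and H3K4me3 peaks in 10d replicates 1 and 2 and in 48h replicate 3. Places in the bodies of Olfr1494 and Olfr1511 had peaks of 3 lists each. At other genes the place with the most lists held peaks of 16. None of the 666 receptor peaks lay in the 72 Sox9 or 158 H3K4me3 regions that had a peak in 7 or more of the 8 lists of an antibody. Of the peaks at other genes 0.197% (Sox9) and 0.297% (H3K4me3) did, shares at which 0.508 and 1.21 receptor peaks would be found, so this 0 does not set the receptors apart.

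Long gene models were common among the receptor genes with peaks in the most lists: the 22 receptor genes over 10000 bp gave 3 of the 6 with Sox9 peaks and 8 of the 16 with H3K4me3 peaks in at least 3 lists. Olfr183, whose annotated body is 71199 bp, had Sox9 peaks in 4 of 8 lists (2 at 10d and 2 at 48h) and H3K4me3 peaks in 5 of 8 (3 at 10d and 2 at 48h), all in the body. No more than 2 lists met at any place of it. Olfr1280, of 60182 bp, had H3K4me3 peaks in 6 of 8 lists, 3 at each time, and no Sox9 peak. Olfr1358, of 23101 bp, had H3K4me3 peaks in 6 of 8 lists, 3 at each time, and a Sox9 peak in 1. Olfr165, of 23714 bp, had H3K4me3 peaks in 5 lists and a Sox9 peak in 1.

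Of the genes with short bodies, Olfr1511 (957 bp, chr14:52389815-52390771) stood out with H3K4me3 peaks in 5 of 8 lists, 3 at 10d and 2 at 48h, and a Sox9 peak in 1 list. Olfr1344 (966 bp) had Sox9 peaks in 3 lists, 10d replicate 1 and 48h replicates 1 and 2, and no H3K4me3 peak, and so did Olfr694 (948 bp), in 10d replicates 1 and 3 and 48h replicate 3. Olfr367-ps, whose symbol marks a pseudogene although the table lists it as protein-coding, had Sox9 peaks in 3 of 4 lists at 10d and 0 of 4 at 48h. Olfr211 (1872 bp) and Olfr1432 (1044 bp) had Sox9 peaks in 2 lists each. Among long gene models, Olfr872 (23752 bp) had Sox9 peaks in 3 lists. Olfr943 (18815 bp), Olfr287 (18746 bp) and Olfr687 (48745 bp), also long, had H3K4me3 peaks in 3 lists each. No receptor gene had Sox9 peaks in more than 4 of 8 lists or H3K4me3 peaks in more than 6.

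Of the 5 receptors reported from kidney, 4 had a peak in at least 1 of the 16 lists, where 425 of all 1110 receptor genes (38.3%) did. These shares are not matched for length. The annotated bodies of Olfr78 and Olfr1373 are 18751 bp and 4538 bp, against a family median of 950 bp. Of the 22 receptor genes over 10000 bp, 14 had a Sox9 peak and 18 an H3K4me3 peak. Olfr78 had a single H3K4me3 peak, in the body, in 10d replicate 3, and no Sox9 peak. Olfr90 had no peak in any list. Olfr1373 had H3K4me3 peaks in 10d replicate 3 and 48h replicate 2, and Olfr1392 had a single Sox9 peak, in 10d replicate 1. Olfr1393, whose annotated body is 28487 bp, had Sox9 peaks in 10d replicates 2, 3 and 4 and in 0 of 4 lists at 48h, and H3K4me3 peaks in 0 of 4 lists at 10d and in 48h replicates 1 and 3. It is 1 of the 6 receptor genes with Sox9 peaks in at least 3 lists. Its 5 peaks were all of 1 step, all in the body and at 5 different places. This fell short of the rule of 4 of 4 lists against 0 of 4.

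The deficit was found in both classes of receptors and in most large clusters, while the intervals of the pooled small clusters included equal density. Class I receptors, the older class shared with fish, had 0.573 times the density of other genes for Sox9 (95% Poisson interval 0.378 to 0.833, 125 genes) and 0.564 times for H3K4me3 (0.408 to 0.759). Class II receptors, the larger class of land vertebrates, had 0.569 times for Sox9 (0.496 to 0.649, 961 genes) and 0.567 times for H3K4me3 (0.509 to 0.629). The classes were read from the family numbers in the gene synonyms. Joining receptor genes at most 1000000 bp apart gave 50 clusters, 15 of them with 20 or more genes. Of these 15, the density was below that of other genes in 13 for Sox9 and 14 for H3K4me3, and the 95% interval of the count lay below it in 8 and 11.

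The largest cluster, with 222 genes (chr2:85330967-90401674), had 0.337 times the density of other genes for Sox9 (0.224 to 0.488) and 0.276 times for H3K4me3 (0.194 to 0.380). The cluster of 126 genes that holds Olfr78 (chr7:102476773-105369317) had 0.573 and 0.531 times. The clusters of 95 genes on chromosome 9 (chr9:37711348-40188094), 67 on chromosome 7 (chr7:106677534-108894405) and 63 on chromosome 19 (chr19:11828077-13919972) had 0.465, 0.563 and 0.695 times for Sox9, and 0.642, 0.535 and 0.515 times for H3K4me3. At the other end, the cluster of 24 genes on chromosome 11 that holds Olfr30 and Olfr330 (chr11:58454915-59614225) had 1.19 times for Sox9 (0.593 to 2.13) and 1.33 times for H3K4me3 (0.815 to 2.06), intervals that include 1. Pooled over the 15 clusters of 20 or more genes (913 genes), the density was 0.498 (0.428 to 0.576) times that of other genes for Sox9 and 0.481 (0.427 to 0.541) times for H3K4me3. Pooled over the 35 smaller clusters (197 genes), it was 0.923 (0.728 to 1.15) times for Sox9 and 0.925 (0.770 to 1.10) times for H3K4me3, intervals that include 1; the difference between large and small clusters was not tested. Among the smaller ones the interval lay above 1 for Sox9 in a cluster of 6 genes (chr4:43695000-43855463, 8 peaks, 3.12 times, 1.35 to 6.14) and in 1 of 13 genes (chr4:118665519-118934840, 10 peaks, 2.17 times, 1.04 to 3.99), and for H3K4me3 in 1 of 4 genes (chr17:33176416-33269676, 7 peaks, 3.51 times, 1.41 to 7.23). For H3K4me3 the interval lay below 1 in 1 smaller cluster, of 15 genes (chr7:86268730-86695384, 3 peaks, 0.303 times, 0.0625 to 0.886). These small clusters were picked from 50 clusters for their values.

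**Figure D5:**
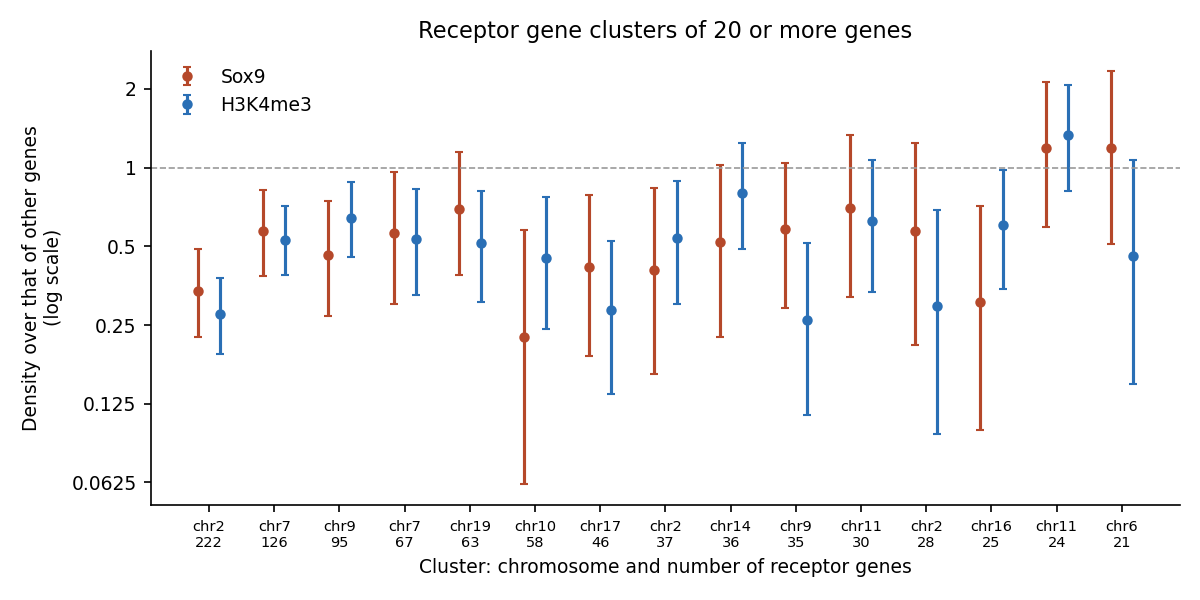
Peak density in the 15 receptor clusters of 20 or more genes, as a ratio to other protein-coding genes (log scale), for Sox9 (orange, left) and H3K4me3 (blue, right); bars are 95% Poisson intervals of the pooled counts of 8 lists and the dashed line marks equal density. Clusters run from 222 genes on the left to 21 on the right; the lowest ratios are 0.226 for Sox9 and 0.262 for H3K4me3.

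Other families that are used in few tissues did not form 1 group. Over the pooled counts the olfactory receptors had 0.578 times the density of other genes for Sox9 and 0.564 times for H3K4me3. The vomeronasal receptors (Vmn1r and Vmn2r, 355 genes), which detect pheromones, had 0.490 and 0.446 times. Taken apart, Vmn1r (231 genes) had 0.610 times for Sox9 (0.457 to 0.797) and 0.412 times for H3K4me3. Vmn2r (124 genes) had 0.461 and 0.454 times. For Sox9 the olfactory receptors thus lay above Vmn2r but not above Vmn1r, and the 2 families were tested only together. Olfactory receptors over vomeronasal receptors gave a log2 ratio of 0.62 ± 0.689 for Sox9 (SD, n = 8, higher in 7 of 8 lists, exact sign-flip permutation p = 0.0312, adjusted over 4 tests p = 0.0312) and 0.37 ± 0.344 for H3K4me3 (7 of 8 lists, exact p = 0.0156, adjusted p = 0.0208). The Sox9 call rests on few peaks: without any 1 of 10d replicates 2 and 3 and 48h replicates 1, 3 and 4 the exact p was 0.0625, at log2 ratios of 0.43 to 0.65. Ribosomal protein genes (Rpl and Rps, 97 genes), which all cells express, had 1.38 and 1.49 times the density of other genes for Sox9 and H3K4me3, and olfactory receptors over them gave -1.29 ± 0.390 for Sox9 and -1.38 ± 0.304 for H3K4me3 (lower in 8 of 8 lists of each, exact p = 0.00781, adjusted p = 0.0156).

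Bitter taste receptors (Tas2r, 35 genes) had 0.384 times the density of other genes for Sox9 and 0.356 times for H3K4me3, from 4 and 6 peaks. Trace amine receptors (Taar, 15 genes), which olfactory neurons also use, had 8 Sox9 and 6 H3K4me3 peaks, with intervals that include 1. Keratin-associated protein genes (Krtap, 56 genes), which hair follicles express, lay above other genes, at 2.43 times for Sox9 (1.73 to 3.31) and 2.03 times for H3K4me3 (1.52 to 2.64). The beta-defensins (Defb, 42 genes) had 0.715 and 0.904 times, with intervals that include 1.

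The genes that serve olfactory signalling and receptor choice showed no such deficit. The 22 genes of that list, with a median body of 41.4 kb, had 1.02 times the density of other genes for Sox9 (0.886 to 1.18) and 1.19 times for H3K4me3 (1.07 to 1.32). A Sox9 peak was present in at least 1 list at 21 of 22 and in at least 3 lists at 14, and an H3K4me3 peak in at least 1 list at 22 of 22 and in at least 3 lists at 18, against 80.0% and 43.8% of all genes for Sox9 and 86.7% and 62.1% for H3K4me3. The shares of all genes are not matched for length. Ano2 (350 kb), the chloride channel that amplifies the odour response, had peaks in 8 of 8 lists of each antibody. They were of up to 17 steps for Sox9 and 92 for H3K4me3. Ebf4 (75.4 kb), of the EBF factors, had Sox9 peaks in 8 lists and H3K4me3 peaks in 7. Adcy3, the adenylate cyclase of the cilia, had them in 5 and 7, and Gnal, the G protein subunit that the receptors activate, in 3 and 7. Cnga4 (8.75 kb), a subunit of the cyclic nucleotide-gated channel, had no Sox9 peak and H3K4me3 peaks in 4 lists. Omp (2.09 kb), the marker protein of mature olfactory neurons, had Sox9 peaks in 2 lists and an H3K4me3 peak in 1.

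The presence of a peak did not set markers of the labelled cells apart from those of other cells. Among tubule and injury genes, Lrp2 had peaks in 7 Sox9 and 8 H3K4me3 lists, Hnf4a in 4 and 5, Pax8 in 3 and 6, Havcr1 in 2 and 4, Vcam1 in 0 and 4, and Sox9 itself in 3 and 1. Among genes of other cells, the endothelial Pecam1 had peaks in 6 Sox9 and 6 H3K4me3 lists, the stromal Pdgfrb in 6 and 7, the podocyte gene Nphs1 in 3 and 6 and the leukocyte gene Ptprc in 2 and 4. The numbers of lists overlapped between both sets of markers for each antibody. They are not matched for length, since the annotated bodies of these markers ran from 5.55 kb (Sox9) to 162 kb (Lrp2). Of all protein-coding genes, 43.8% had a Sox9 peak and 62.1% an H3K4me3 peak in at least 3 lists.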

How the data were processed

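Sox9-lineage kidney cells were profiled by CUT&RUN, and the authors deposited 1 peak list for each of 16 antibody libraries, each called for a single library with that pellet's input as control, per the file headers. Per the submitters' processing notes, the tools were MACS3, Bowtie, Bowtie2 and Partek 10, and the genome build mm10. Filters, duplicate handling, scaling, the caller's threshold and depth are not given in the sources used here, so precision rests on 4 lists per group. The fold is the authors' ratio of pileup over local background. The authors' caller wrote each p-value and q-value as its −log10. The deposited score is a display score and was not used. These values served only within a list.

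Receptor genes, other genes and their positions were taken from RefSeq on GRCm38.p6, and peaks off chromosomes 1 to 19, X and Y were left out. Overlapping genes and flanks were merged before lengths were summed. Height was solved from fold and p, assuming 1 added to pileup and background and a Poisson tail; over 99% of each list gave heights that differed by at most 0.05 steps from a whole number of steps, and 1 step was 60.1 to 508 between lists. Tests were two-sided exact permutations over lists, with Benjamini-Hochberg adjustment over 7 tests, 2 of which, on the share of peaks of 2 or more steps, are not reported because most lists held no such receptor peak; intervals of differences were found by inverting these tests. Poisson intervals are 95% and cover counting error only. They treat the peaks of 8 lists as independent counts and the density of other genes as fixed. Calculations were tested on simulated data.

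Named genes were those with a peak in the most lists (up to 8 per antibody), those with a peak of 2 or more steps, any present in 4 of 4 lists of one time and 0 of 4 of the other, 5 reported from kidney and a list of 22 genes of olfaction. Olfr1494 and Olfr12, Olfr30 and Olfr1450 were named after their values were seen. The members and lists were chosen with earlier results of these data known. The labels' protocols say that aliquots of 1 pellet gave the Sox9 and H3K4me3 libraries, and lists with the same time and number were paired for that reason. Their deviations in peak presence over all protein-coding genes, not the receptor genes alone, correlated between -0.0245 and 0.0429 at 10d and between -0.00367 and 0.0139 at 48h. Python 3.11.15, NumPy 2.4.6, SciPy 1.17.1, pandas 2.3.3, numba 0.67.0 and Matplotlib 3.10.9 were used.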

Additional observations from a re-analysis of the deposited data

Results flagged for a closer look

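The share of receptor peaks of 2 or more steps stood apart in 2 lists: it was 1.04% in Sox9 10d replicate 1 and 3.57% in Sox9 48h replicate 2, while the other 3 lists of each group were at 0. Each value is a single peak, beside Olfr535 in the 10d list and beside Olfr726 in the 48h list. A list was marked where its gap to the nearest other list was large for the range of its group. For normally distributed values chance marks about 1 group in 20. That rate does not hold here, since with the other 3 lists at 0 any single peak makes the gap equal to the range.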

How the results depend on the processing

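Of 86 alternatives to 13 results, 2 of them on the share of taller peaks,, 74 kept the direction and the side of the 0.05 threshold, and so did 107 of 112 fits that left out a library. A q-value filter removed no receptor peak and left 109746 of 109775 Sox9 and 177632 of 177678 H3K4me3 peaks at other genes. The lower density at receptor genes kept its call under that filter, which could change little. It also kept its call under a 5000 bp window (log2 -0.94 for Sox9, -1.01 for H3K4me3), assignment by overlap and autosomes alone. With 2 or more steps it was -1.04 and -2.15, values set mostly by the added count, since 6 of 8 Sox9 and 5 of 8 H3K4me3 lists had no such receptor peak. It lost the call for H3K4me3 with bodies alone (-0.27). For both antibodies it lost the call against space outside every protein-coding gene (-0.072 and -0.13). The same held with the median over lists (-0.77 and -0.89, exact sign-flip p = 0.0625, the smallest that test can give). The log2 ratio turned to 0.15 and 0.069, not called, against the space between protein-coding genes inside the receptor clusters. That comparator was added after the data were seen. Sox9 minus H3K4me3 turned to -0.022 with bodies alone and was 1.11 (unadjusted exact p = 0.0387) among peaks of 2 or more steps, which the same added count sets. The 10d minus 48h difference of Sox9 turned to 0.17 with the 5000 bp window and to 0.077 against short other genes, and that of H3K4me3 turned to 0.16 with 2 or more steps, while with bodies alone they were -0.46 and -0.35; none of these was called. With the replicate block, Sox9 minus H3K4me3 within pellets was 0.066 (exact p = 0.461), and pairing the times by number gave -0.13 and -0.11 (exact p = 0.75 each), which changed no call; same-numbered lists of the 2 times correlated between -0.0348 and 0.0213, so they share only a number. Without 1 library at a time, olfactory over vomeronasal receptors for Sox9 ranged from 0.43 to 0.72. The GC-matched, cluster and short-gene comparators, the contrast of body and flanks, the family tests and the fits without the pellet 10d replicate 1 were added after the data were seen. The cause of the other changes was not tested. With 11 to 96 receptor peaks per list, single genes are limited to presence or absence.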
